A study of Saccharomyces cerevisiae with 49 samples.

Results

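The transcript levels of budding yeast that had left a G1 arrest and were back in division were compared between cells arrested with mating pheromone and cells arrested through the cell cycle kinase. Each culture was averaged over a window of about 1 or 2 cycle lengths, to lessen the weight of the cell cycle phase of single arrays. The windows were set by time after release, with earlier results of these data known. They hold 29 of the 49 arrays of the series: 11 arrays at 50 to 150 min of the alpha-factor culture, 8 arrays at 105 to 225 min of cdc28 culture B, and 10 arrays at 60 to 160 min of cdc28 culture E. The 135 min array of culture B, with values for 4172 features and an SD of 0.919 over them, was left out. At the period that best described cell cycle genes in each course, 54, 126 and 94 min, the windows spanned 1.85, 0.952 and 1.06 cycles. By these periods each window began before 1 full period had passed since release, so the windows also hold part of the first cycle.

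The alpha-factor cells were BY4741 bar1-, a laboratory a-type strain without Bar1, the protease that degrades the pheromone. They were held for 3 h in 1 ug/ml alpha factor, collected on a filter, rinsed and put into fresh rich medium that held 5 ug/ml of a supplement that the labels leave unnamed. The cdc28 cells were BY4741 with a temperature-sensitive cdc28 allele, named cdc28-13 in the series text. They were shifted to 37 C for 3 h and then cooled by adding cold medium, to 22 C according to the sample labels and to 25 C according to the series text. On every array the synchronized cells were set against growing, unarrested cells of the same strain, so a value is a log2 ratio to that strain's own mid-log level and a difference of 1 is a 2-fold difference. For the alpha-factor culture and the mid-log cultures the sources used here give no temperature.

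Alpha factor binds a receptor on a cells and acts through a MAP kinase cascade and the transcription factor Ste12, which switches on mating genes and stops the cycle in G1. The cdc28 allele stops the cycle at the same stage by removing the activity of the cyclin-dependent kinase, but needs a shift to high temperature, which by itself calls up chaperone genes through the heat shock factor Hsf1. Released cells re-enter the cycle, and their growth program returns towards that of growing cells.

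The culture is the unit of comparison here, and there were 3: 1 after alpha factor and 2 cdc28 cultures. Strain, mid-log reference, kind of arrest, temperature, change of medium and culture go together and cannot be told apart. A difference between the arrests therefore also holds any difference between the mid-log cells of the strains. The labels of the alpha-factor arrays give total RNA as the molecule and those of the cdc28 arrays polyA RNA, although both protocols describe purified messenger RNA. The array names of alpha factor and culture B share a prefix that differs from that of culture E, and both letters that end array names occur in each window. Window arrays held 4570 to 6080 features, and the precision is limited by how few arrays and cultures there are. The deleted BAR1 had values on 0 window arrays after alpha factor and on all 8 and 10 of cultures B and E. HIS3, which the BY4741 background is known to carry as a deletion, had values on every window array, with means of 0.43, 0.65 and 1.35. Among other genes checked for the strains, LEU2 had values on all 11, 8 and 10 window arrays, with means of 0.26, 0.02 and 0.48. URA3 had values on 5, 7 and 8 arrays and MET17 on 0, 0 and 7. The presence of values is thus no firm check of a deletion. The a-cell genes MFA1, MFA2, STE6, AGA2 and ASG7 were measured in all 3 cultures, and STE2, the receptor gene, had values on 0, 8 and 10 arrays. Of the 9 listed alpha-cell genes 7 were on the array and 3 could be tested, with a median difference of 0.05 between the arrests. The 7 meiosis genes tested had a median difference of -0.12. Each value is a ratio to cells of the same strain, so these list differences cannot check the cell type.

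Few transcripts passed the test of the arrest once cells were cycling. Of 5159 features measured on 80% or more of each window's arrays, limma called 3, or 0.0582%, at an adjusted p under 0.05, and all 3 were higher after alpha factor. One is YIL082W-A, a gene of a Ty3-type retrotransposon, and the others are probes that carry no gene symbol. At an unadjusted limma p under 0.05, 100 features (1.94%) were higher and 35 (0.678%) lower. The alpha-factor mean lay at least 2-fold above both cdc28 means for 36 features (0.698%) and at least 2-fold below both for 6 (0.116%). The cdc28 cultures themselves lay at least 2-fold apart for 119 features (2.31%), 37 higher in B and 82 higher in E. Over all features, the SD of the difference was 0.378 from alpha factor to B, 0.407 from alpha factor to E, and 0.435 from B to E.

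The count of 3 depends on single arrays. Without 1 of the arrays of culture B at 150, 165, 180, 195 or 225 min, or of culture E at 60, 70, 80 or 90 min, limma called 0 features, with 121 to 134 at an unadjusted p under 0.05. It called 5 without B at 105 min, 8 without E at 100 min, 19 without E at 130 min and 8 without E at 140 min. With 3 cultures an exact permutation test of the labels cannot give a p below 0.333, and the limma test takes the spread of the lone alpha-factor culture to be that of B and E.

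**Figure D1:**
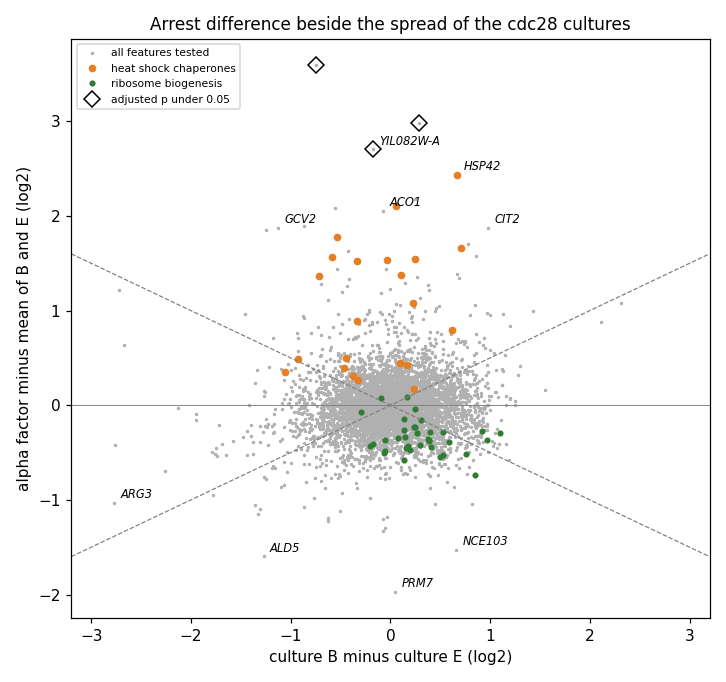
Each point is a feature. The horizontal axis gives culture B minus culture E and the vertical axis alpha factor minus the mean of B and E, both as log2 differences of window means; outside the dashed lines, above or below, the alpha-factor mean lies above or below both cdc28 means. Heat shock chaperones (orange) lie above 0, ribosome biogenesis genes (green) mostly below 0, and diamonds mark the 3 features with an adjusted p under 0.05.

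The named gene that passed was high throughout the alpha-factor window. YIL082W-A ranged from 1.25 to 4.25 (median 2.78) on the 11 alpha-factor arrays, from -0.35 to 0.14 (median -0.14) on the 8 arrays of culture B, and from -0.07 to 0.19 (median 0.02) on the 10 of culture E. Every alpha-factor array lay above every cdc28 array, and both cdc28 cultures stayed at their mid-log level. The difference was 2.70 ± 0.30 (SE; limma adjusted p = 0.0272). It was already there at release, at 2.63 on the alpha-factor array of 0 min against 0.18 and 0.40. The level was not steady before the window, at 9.61 on the alpha-factor array of 20 min and 0.83 on that of 40 min. Within the window it was not falling: the mean was 2.16 over the first part, up to 100 min, and 3.25 over the rest. Transcription of Ty3 is known to respond to mating pheromone. Ty elements occur in near-identical copies, so the copy that gave the signal is uncertain. The unnamed probes that passed differed by 3.59 ± 0.37 and 2.98 ± 0.31 (limma adjusted p = 0.0231 for each), with no overlap between the arrests on any window array. Unlike YIL082W-A, both were lower in the later part of the alpha-factor window, with means of 4.03 up to 100 min and 2.35 afterwards for the first and of 3.41 and 2.64 for the other, after 6.98 and 5.71 at 0 min.

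Heat shock chaperones had the largest median difference of the lists. Of 22 members tested, of 24, 21 had an alpha-factor mean above both cdc28 means (95.5%, against 30.1% of all features) and 0 below both (28.7% of all). Unadjusted limma p were under 0.05 for 12, all higher, and 10 were at least 2-fold above both cultures. Adjusted over all features, limma called 0 of the 22. The list's median difference was 0.98, against -0.00 over all features. The median mean level was 0.28 after alpha factor, -0.82 in culture B and -0.64 in culture E, and 18 of the 22 genes lay below their mid-log level in both cdc28 cultures.

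**Figure D2:**
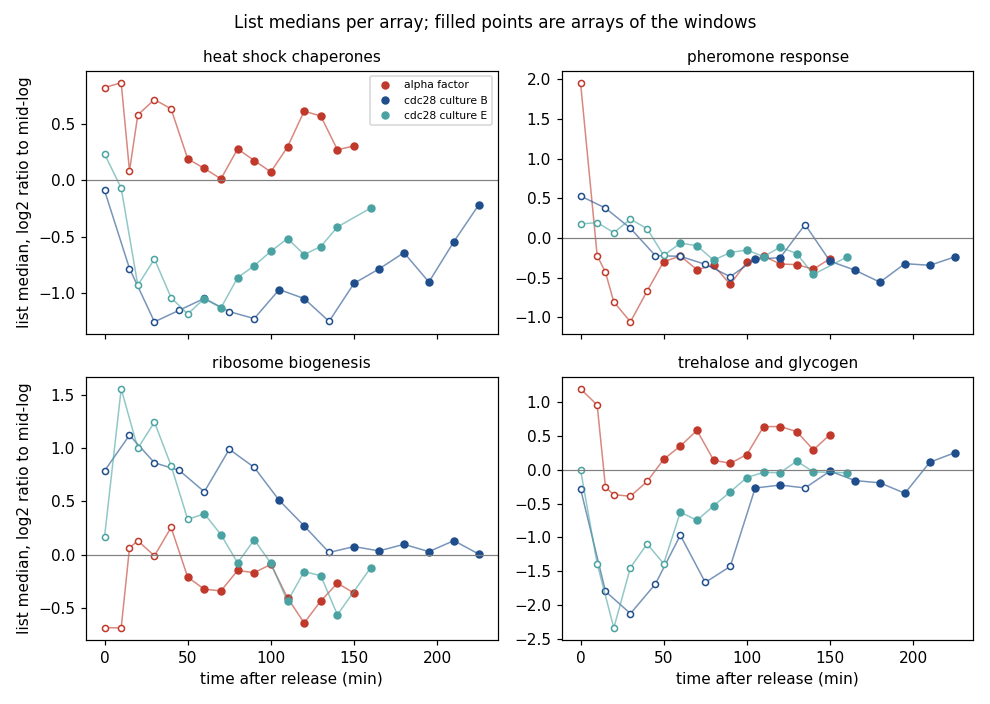
Median log2 ratio to mid-log cells over the members of 4 gene lists, on each array, against minutes after release; filled points are arrays of the windows and open points other arrays. In the windows the chaperone medians of alpha factor (0.01 to 0.61) lie above those of both cdc28 cultures (-1.13 to -0.22), while those of pheromone response genes overlap.

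The list median of chaperones ranged from 0.01 to 0.61 over the alpha-factor arrays, from -1.05 to -0.22 over culture B and from -1.13 to -0.25 over culture E, so no cdc28 window array reached the lowest alpha-factor array. The cdc28 cultures were not level across their windows. In culture B the list median of window means was -0.92 over 105 to 165 min and -0.49 over 180 to 225 min, and in culture E it was -0.88 over 60 to 100 min and -0.50 over 110 to 160 min. After alpha factor it was 0.19 up to 100 min and 0.41 afterwards. The cdc28 averages therefore cover a climb back towards the mid-log level.

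HSP42 (YDR171W), for a small chaperone that gathers misfolded proteins, ranged from 0.40 to 2.44 (median 1.29) after alpha factor, from -1.75 to 0.11 (median -0.83) in B and from -2.26 to -0.48 (median -1.46) in E. The difference was 2.44 ± 0.36 (SE; limma adjusted p = 0.0890). HSP82 (YPL240C), for the heat-inducible Hsp90, ranged from 0.30 to 1.70 (median 0.80), from -1.64 to -0.23 (median -1.40) and from -1.90 to -0.49 (median -1.23), a difference of 2.10 ± 0.30 (limma adjusted p = 0.0890). For both genes all alpha-factor arrays lay above all cdc28 arrays. Their values on the last arrays, which hold the latest state recorded, were 1.13 for HSP82 after alpha factor at 150 min against -0.23 in B at 225 min and -0.70 in E at 160 min.

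SSA1 (YAL005C), for a cytosolic Hsp70, ranged from 0.10 to 1.21 (median 0.64) after alpha factor, from -2.29 to -0.21 (median -1.62) in B and from -1.44 to -0.44 (median -0.85) in E. SIS1 (YNL007C), for an Hsp40 co-chaperone, ranged from -0.01 to 0.52 (median 0.21), from -1.97 to -0.39 (median -1.28) and from -2.11 to -0.67 (median -1.14). HSP104 (YLL026W), for the disaggregase, ranged from -0.04 to 1.28 (median 0.41), from -1.80 to 0.33 (median -1.12) and from -2.41 to -0.35 (median -1.02). The arrests did not overlap for SSA1 and SIS1 and overlapped for HSP104. The differences were 1.77 ± 0.34, 1.54 ± 0.30 and 1.55 ± 0.31, with a limma adjusted p of 0.369 each. BTN2, SSA2, SSA4, STI1 and HSP78 completed the 10, with differences between 1.36 (HSP78) and 1.66 (BTN2). At the other end, HSP10, HSP31, SSE1, HSP60 and SSA3 differed by 0.17 to 0.39. HSP82 and HSC82, and SSA1 and SSA2, are near-identical pairs, so their values may share signal and are uncertain as single genes; HSC82 and HSP26 had too few values to be tested. RPN4 (YDL020C), for the activator of proteasome genes, which is not a chaperone, had means of 0.66, -0.35 and -0.44 and a difference of 1.06 ± 0.30 (limma p = 0.00748, adjusted p = 0.831). Its 31-member proteasome list had a median difference of -0.03.

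**Figure D3:**
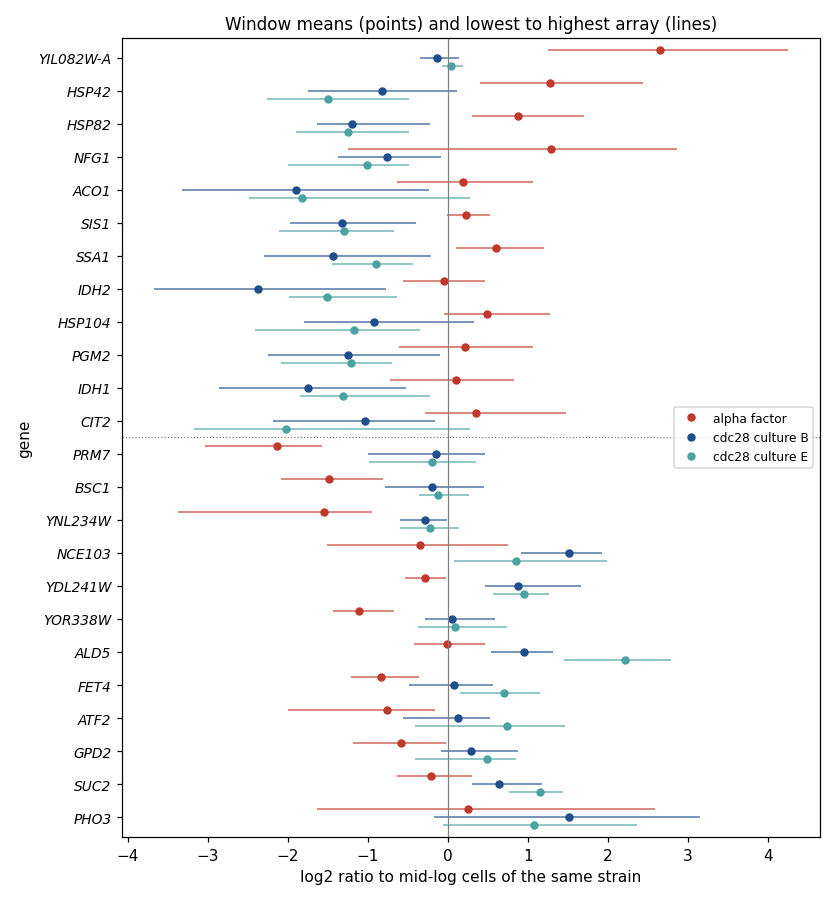
Window means (points) of the 12 genes furthest above and the 12 furthest below both cdc28 means, with lines from the lowest to the highest array of each window, as log2 ratios to mid-log cells. Above the dotted line all 12 alpha-factor means lie above both cdc28 means, and below it all 12 lie below them; of the 24, only YIL082W-A had a limma adjusted p under 0.05.

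Among genes of the TCA and glyoxylate cycles, the 5 that act from citrate synthesis to 2-oxoglutarate stood apart from the other 10. CIT1, CIT2, ACO1, IDH1 and IDH2 had differences of 1.22 to 2.05, all at least 2-fold above both cdc28 means and all with an unadjusted limma p under 0.05. The other 10 differed by -0.35 to 0.28, and the list of 15 had a median difference of 0.02. The 5 were singled out after their values were seen. These enzymes also feed glutamate synthesis, and the retrograde pathway is known to control several of their genes.

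ACO1 (YLR304C), for aconitase, ranged from -0.63 to 1.06 (median 0.08) after alpha factor, from -3.33 to -0.23 (median -1.99) in culture B and from -2.48 to 0.28 (median -2.08) in culture E. The difference was 2.05 ± 0.30 (SE; limma adjusted p = 0.0890). The arrests overlapped through the late cdc28 arrays: culture B was at -2.97 on average over 105 to 165 min and at -0.82 over 180 to 225 min, and culture E reached 0.28 at 160 min. After alpha factor ACO1 was near its mid-log level in both parts of the window, at 0.37 and -0.02.

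IDH2 (YOR136W), for a subunit of isocitrate dehydrogenase, ranged from -0.57 to 0.47 (median -0.11), from -3.67 to -0.77 (median -2.36) and from -1.99 to -0.64 (median -1.51), with no overlap between the arrests. The difference was 1.90 ± 0.40, and that of the partner subunit gene IDH1 was 1.63 ± 0.33 (limma adjusted p = 0.405 and 0.369). CIT2 (YCR005C), for the peroxisomal citrate synthase, had means of 0.35, -1.03 and -2.02. It ranged from -3.17 to 0.28 in culture E and overlapped the alpha-factor range of -0.28 to 1.48. In all 5 genes the alpha-factor mean was between -0.04 and 0.45, near the mid-log level, and both cdc28 means were below it.

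Storage carbohydrate genes leaned the same way. Of 14 trehalose and glycogen genes 11 had alpha-factor means above both cdc28 means (78.6%, against 30.1% of all features) and 0 below both (28.7% of all). In limma 5 had an unadjusted p under 0.05 and 0 were past the adjusted threshold. The list's median difference was 0.59. PGM2 (YMR105C), for the major phosphoglucomutase, ranged from -0.60 to 1.07 (median 0.16) after alpha factor, from -2.24 to -0.09 (median -1.17) in B and from -2.09 to -0.70 (median -1.02) in E, a difference of 1.44 ± 0.30 (limma adjusted p = 0.405). The glycogen synthase genes GSY1 and GSY2 differed by 1.06 and 1.03, and the branching enzyme gene GLC3 by 0.94. PGM2, GSY1, GSY2 and GLC3 overlapped between the arrests on single arrays.

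Of 21 genes of glycolysis and fermentation 14 lay above both cdc28 means (66.7%, against 30.1% of all features) and 0 below both (28.7% of all). Only HXK1, PYK2 and GLK1 had an unadjusted limma p under 0.05, with differences of 1.58, 0.99 and 0.94, and limma called 0 after adjustment. The highly expressed enzymes differed less, for example PGK1 by 0.34, TDH3 by 0.34 and CDC19 by 0.22. The list's median difference was 0.33. HXK1, GLK1 and PYK2 encode hexokinase 1, glucokinase and a minor pyruvate kinase, isoforms that are known to be repressed by glucose.

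Genes of purine and one-carbon metabolism formed another group of higher genes. Of 12 tested 10 lay above both cdc28 means (83.3%, against 30.1% of all features) and 2 below both (16.7%, against 28.7%). In limma 5 had an unadjusted p under 0.05, and 0 passed after adjustment. The 5 were GCV1, GCV2 and GCV3, for the glycine cleavage system, SHM2, for the cytosolic serine hydroxymethyltransferase, and ADE17, for an enzyme of late purine synthesis. GCV2 (YMR189W) ranged from -0.54 to 1.48 (median 0.71) after alpha factor, from -2.47 to -0.82 (median -2.01) in B and from -0.96 to -0.27 (median -0.83) in E. Its difference was 1.87 ± 0.45 (limma adjusted p = 0.537), with some overlap between alpha factor and culture E. GCV1 differed by 1.85 with no overlap, SHM2 by 1.20, GCV3 by 1.00 and ADE17 by 0.95. ADE4, for the first step of the purine pathway, differed by 0.26 and ADE8 by -0.29. At release this list stood the other way, with a median difference of -0.65.

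Ribosome biogenesis genes, whose products build new ribosomes in growing cells, lay slightly lower after alpha factor. Of 36 tested, 29 (80.6%) had an alpha-factor mean below both cdc28 means and 2 above both, with a median difference of -0.37. In limma 0 had an unadjusted p under 0.05 in either direction, against 1.94% and 0.678% of all features. BRX1 (YOL077C), for a factor of the large ribosomal subunit, was the furthest apart, with means of -0.36, 0.80 and -0.04 and a difference of -0.73 ± 0.39. The list median ranged from -0.64 to -0.09 over the alpha-factor arrays, from 0.00 to 0.51 over culture B and from -0.57 to 0.38 over culture E. Alpha factor did not overlap with B and overlapped with E, whose median was 0.13 up to 100 min and -0.30 afterwards.

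Ribosomal protein genes did not order by arrest in their list medians. Their median level was 0.49 after alpha factor, 0.88 in culture B and 0.41 in culture E, so the cdc28 cultures lay further from each other than alpha factor lay from E. Of 124, 7 lay above both cdc28 means (5.65%, against 30.1% of all features) and 45 below both (36.3%, against 28.7%). Members outside both cdc28 means were thus mostly lower after alpha factor, and 0 had an unadjusted limma p under 0.05. Amino acid genes showed the same kind of spread: 37 genes outside the sulfur and arginine lists had medians of 0.32, 0.26 and 0.91, and ARG3 (YJL088W), for ornithine carbamoyltransferase, had means of 0.38, 0.03 and 2.80.

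A small set of genes was lower after alpha factor than in both cdc28 cultures. PRM7 (YDL039C), a gene named for its regulation by pheromone, ranged from -3.03 to -1.57 (median -2.12) on 10 alpha-factor arrays, from -0.99 to 0.46 (median -0.07) in culture B and from -0.98 to 0.35 (median -0.24) in culture E. Every alpha-factor array lay below every cdc28 array. The difference was -1.97 ± 0.30 (SE; limma adjusted p = 0.0956). Its neighbour on chromosome IV, BSC1 (YDL037C), related to the flocculin gene FLO11, ranged from -2.09 to -0.81 (median -1.61), from -0.78 to 0.45 (median -0.23) and from -0.36 to 0.27 (median -0.19), again without overlap, and differed by -1.33 ± 0.30 (limma adjusted p = 0.474).

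At release PRM7 had been high in the cdc28 cultures, at 3.38 and 3.71, and at 0.93 after alpha factor. It came down in all 3 cultures, to window means near the mid-log level in the cdc28 cells and below it after alpha factor. From the earlier to the later part of the window it went from -0.02 to -0.27 in B and from 0.05 to -0.44 in E. After alpha factor it went from -1.98 to -2.30. The last array of E, at 160 min, gave -0.98. BSC1 went from 2.86 and 1.30 in the cdc28 cultures and 0.87 after alpha factor to window means of -0.20, -0.13 and -1.49.

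YNL234W, for a globin-like protein, had means of -1.54 after alpha factor, -0.28 in B and -0.22 in E. YOR338W had means of -1.10, 0.06 and 0.09, and YDL241W had -0.28, 0.88 and 0.95. For all 3 genes the arrests did not overlap on any window array, and the differences were -1.29, -1.18 and -1.20 (limma adjusted p = 0.498, 0.599 and 0.588). NCE103 (YNL036W), for carbonic anhydrase, ranged from -1.51 to 0.75 (median -0.43) after alpha factor, from 0.92 to 1.93 (median 1.58) in B and from 0.08 to 1.99 (median 0.91) in E, a difference of -1.53 ± 0.36 with overlap (limma adjusted p = 0.498). Unlike PRM7 it did not separate the arrests at release, at 2.48 against 2.25 and 2.80.

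ALD5 (YER073W), for a mitochondrial aldehyde dehydrogenase, did not overlap between the arrests, with means of -0.01, 0.95 and 2.22. The cdc28 cultures differed from each other by -1.27 (B minus E), in size more than alpha factor differed from B (-0.96) and less than it differed from E (-2.23). FET4, for a low-affinity iron transporter, ATF2, for an alcohol acetyltransferase, GPD2, for a glycerol-3-phosphate dehydrogenase, SUC2, for invertase, and PHO3, for an acid phosphatase, differed by -1.23, -1.19, -0.98, -1.11 and -1.04. SUC2 did not overlap, and the other 4 did. The phosphatase gene PHO5 differed by -1.04 ± 0.39 with means of 0.20, 1.65 and 0.83. Over all features, the alpha-factor arrays all lay above all cdc28 window arrays for 47 (0.911%) and all below for 23 (0.446%).

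**Figure D4:**
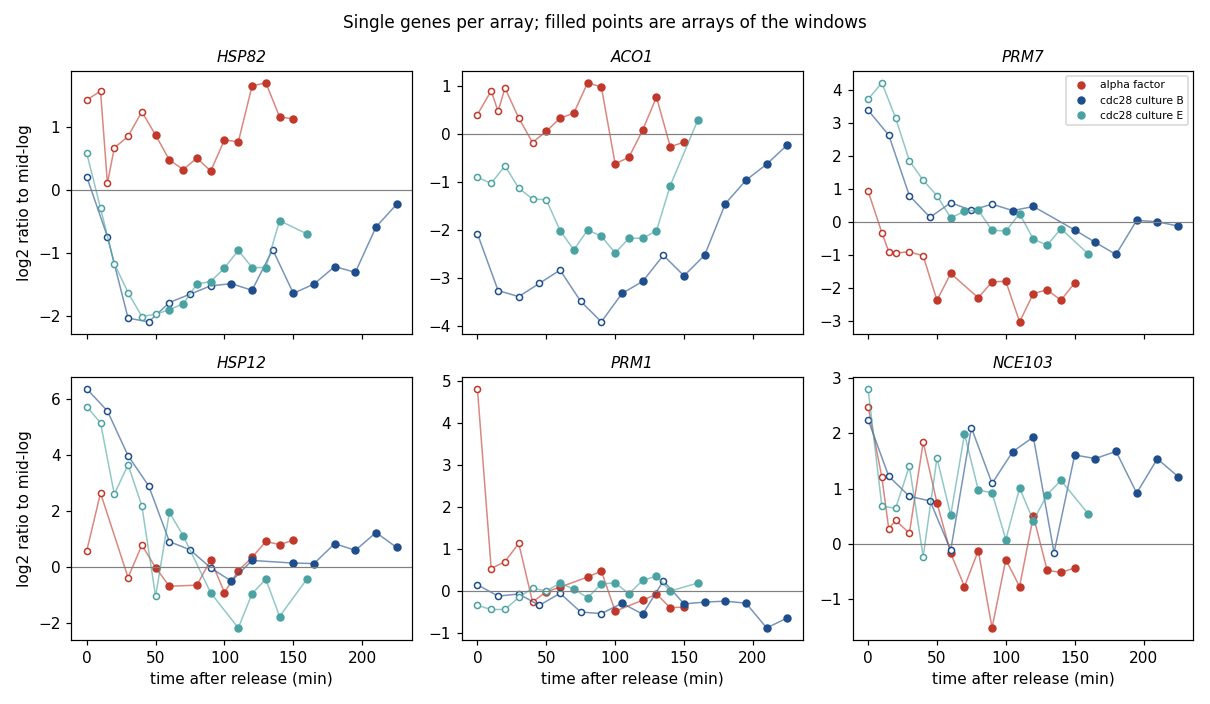
Log2 ratio to mid-log cells on each array for 6 genes, against minutes after release; filled points are arrays of the windows. HSP82 and PRM7 keep the arrests apart in the windows, ACO1 in the cdc28 cultures climbs back to the alpha-factor level, and PRM1 and HSP12, which differ at 0 min, overlap in the windows.

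Most of the 2-fold differences between the arrests at release fell short of that size in the windows. Of 5006 features measured at 0 min in all 3 cultures, 400 were at least 2-fold higher after alpha factor than in both cdc28 cultures and 285 at least 2-fold lower. Of the 400, 26 (6.5%) were still at least 2-fold above both in the windows, and of the 285, 3 (1.05%) were still below. By that measure 0 had turned to the opposite side. Read from the windows, 26 of 35 higher features (74.3%) and 3 of 6 lower ones had been at least 2-fold from both cdc28 cultures, on the same side, at release. The remaining ones fell short of 2-fold at release and had not necessarily stood on the other side. Among the 400 the median difference was 1.64 at 0 min and 0.25 in the windows, and among the 285 it was -1.46 and -0.34. Each 0 min value is 1 array, and the letter that ends its name differs between alpha factor and both cdc28 cultures. The 400 and 285 were picked for their size on these single arrays, so some shrinkage in means of several arrays is built in. The same holds for the single genes below that earlier work on these data named at 0 min.

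Mating genes lost their difference. PRM1, FIG2 and AGA1, for cell fusion and adhesion, differed by 4.90, 4.84 and 4.78 at 0 min and by 0.08, 0.03 and 0.01 in the windows. In the windows all 3 overlapped between the arrests. Of 23 pheromone response genes 5 lay above and 10 below both cdc28 means, and the list's median difference was 0.01, from 1.48 at 0 min. Only GPA1 (YHR005C), for the G protein subunit that restrains the pathway, had an unadjusted limma p under 0.05, with means of -0.83, 0.05 and -0.20 (difference -0.76 ± 0.31, adjusted p = 1 after rounding). AGA1 and SST2 lay below their mid-log level in all 3 cultures, at -1.01, -1.16 and -0.89 and at -0.99, -0.93 and -0.89.

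HSP12 (YFL014W), a stress gene for a small membrane-binding protein, was the largest difference the other way at release, at 0.59 after alpha factor against 6.38 and 5.74, or -5.47. In the windows it had means of 0.10, 0.43 and -0.44, and ranged from -0.90 to 0.97, from -0.50 to 1.24 and from -2.17 to 1.97, so the 3 cultures overlapped. The other large release differences also shrank: CHS1, for a chitin synthase, went from 4.05 to 0.26, CMK2, for a calmodulin-dependent kinase, from 3.95 to -0.34, PHM6, a phosphate-regulated gene, from -3.52 to -0.23, PRB1, for vacuolar protease B, from 4.30 to 0.73 and TPS2, for trehalose-phosphate phosphatase, from 4.46 to 0.77. HSP42 kept most of its difference, at 3.29 and 2.44, and HSP82 had 1.03 at release and 2.10 in the windows. The level of HSP42 was lower in the windows in all 3 cultures. It went from 3.48 to 1.28 after alpha factor, from -0.15 to -0.83 in B and from 0.53 to -1.50 in E.

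**Figure D5:**
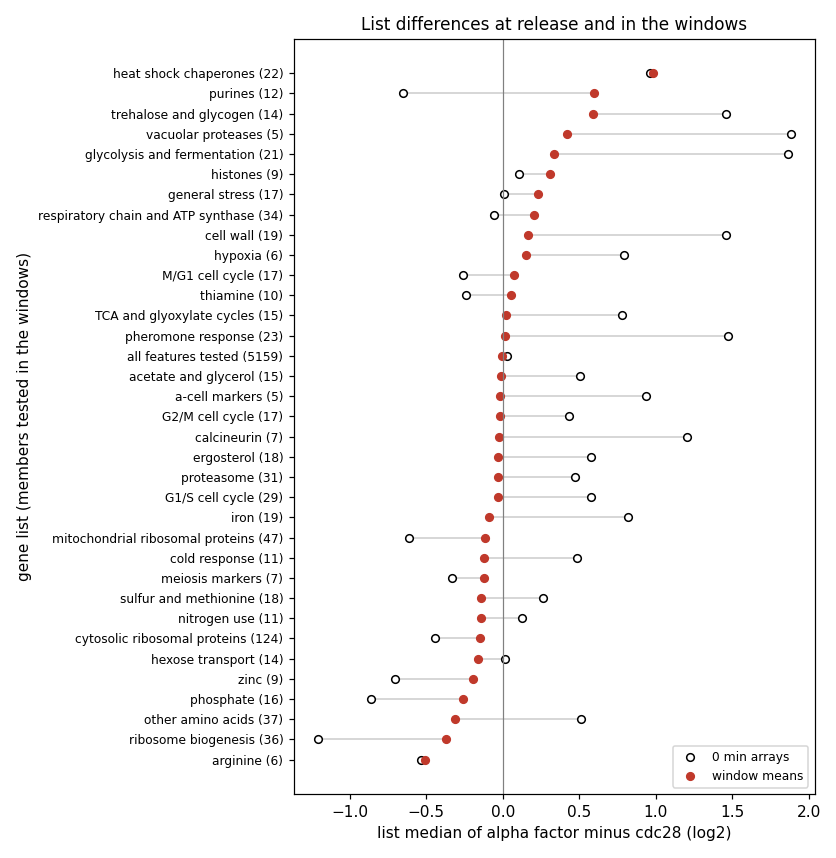
List medians of alpha factor minus cdc28, as log2 differences, on the 0 min arrays (open points) and over the windows (filled points). Chaperones have the same median at both (0.96 and 0.98), while pheromone response (1.48 to 0.01), glycolysis (1.86 to 0.33) and ribosome biogenesis (-1.21 to -0.37) draw towards 0.

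By list, the median difference of chaperones was 0.96 at release and 0.98 in the windows. The levels behind it were not the same. At 0 min the chaperone median was 0.82 after alpha factor, -0.09 in B and 0.23 in E. In the windows it was 0.28, -0.82 and -0.64. The median difference of glycolysis went from 1.86 to 0.33, trehalose and glycogen from 1.46 to 0.59, cell wall genes from 1.46 to 0.17, phosphate genes from -0.86 to -0.26 and ribosome biogenesis from -1.21 to -0.37. Among cell wall genes SED1 (YDR077W), for an abundant wall protein, still differed by 1.39 ± 0.36, with means of 2.33, 1.27 and 0.61 (limma adjusted p = 0.624). Of 17 general stress genes 10 lay above both cdc28 means (58.8%, against 30.1% of all features) and 0 below both (28.7% of all). The list's median difference was 0.23, and DDR48, PRX1 and GAD1 had an unadjusted limma p under 0.05.

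Apart from histones, lists of cell cycle genes gave small median differences between the window averages. Of the 9 histone genes tested 6 lay above both cdc28 means (66.7%, against 30.1% of all features) and 0 below both (28.7% of all). The median difference was -0.03 for 29 G1/S genes, 0.31 for 9 histone genes, -0.02 for 17 G2/M genes and 0.07 for 17 M/G1 genes. Within the windows the same lists still swung with time, for G1/S genes from -0.80 to 1.47 after alpha factor, from -0.69 to 1.24 in B and from -0.24 to 0.73 in E. In the M/G1 list of culture E the median was -1.61 up to 100 min and 0.22 afterwards, so its window average mixes unlike parts. SVS1 (YPL163C), a cell wall gene of the G1/S list, had means that differed by 0.91 ± 0.31, and DSE2 (YHR143W), for a daughter-cell wall glucanase, by 0.75 ± 0.31. Both overlapped widely between the arrests.

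The 34 respiratory chain and ATP synthase genes had a median difference of 0.21, with 8 above and 3 below both cdc28 means and 0 at an unadjusted limma p under 0.05. The 47 mitochondrial ribosomal protein genes had -0.11. PUT1 (YLR142W), for proline oxidase, differed by 1.29 ± 0.30 with means of 1.42, 0.20 and 0.05 (limma adjusted p = 0.498), while its list of 11 genes of nitrogen use had a median of -0.14. The 19 iron genes had -0.09, with culture medians of -0.30, -0.65 and 0.54, so B and E lay on opposite sides of alpha factor. NFG1 (YLR042C), for a negative regulator of filamentous growth, had one of the largest differences outside the lists, 2.18 ± 0.31 (limma adjusted p = 0.0890), at means of 1.30, -0.76 and -1.01. Its alpha-factor arrays ranged from -1.25 to 2.87 and overlapped both cdc28 cultures.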

How the data were processed

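The deposited value table of the two-colour oligonucleotide arrays was used. Per the labels, synchronized messenger RNA carried Cy5 and mid-log messenger RNA of the same strain Cy3. The deposited values, made by the authors, were read as log2 of the synchronized over the mid-log signal. The table states neither its log base nor its centring or direction. The direction follows the dyes, and AGA1 was high at 0 min after alpha factor. No 2 arrays correlated below -0.295. How spots were scanned, corrected and normalized is not given in the sources used here.

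Of 6258 probes, 5570 carried 1 symbol and 688 none; probes of 1 gene were averaged, which left 6228 features. Locus tags for 5535 of 5540 named features came from RefSeq. Each array was centred on its median and averaged over its window for features measured on 80% or more of each window's arrays. limma 3.58.1 in R 4.3.3 compared the 3 course means (1 residual and 7.312 prior degrees of freedom, two-sided, Benjamini-Hochberg over 5159 features, threshold 0.05); the script was tested on simulated data. Arrays of a course are not replicates, and windows, members and lists were chosen with earlier results of these data known. Genes described one by one were the 12 with the largest smaller difference to the cdc28 means each way, the furthest member of each list, and genes named at 0 min in earlier work on these data; others are named within their lists or as seen in the values. The alternatives were other centring, averages, windows, filters, variance models, a random culture block, and leaving out arrays or a cdc28 culture. No sequences were used.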

Additional observations from a re-analysis of the deposited data

How the results depend on the processing

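The direction of the 24 genes and 2 unnamed probes compared held in all 1188 recomputed differences. This is no independent check, because these features were picked from the same data for means outside both cdc28 means. Leaving out a cdc28 culture could not reverse them. Of the recomputed differences, 30 passed the threshold newly and 50 no longer passed, and the cause was not tested. The count of 3 features past the threshold became 0 without centring, with quantile normalization, with the median over arrays, with the time-weighted mean, with features measured on 50% or more of the arrays, and with named features only; beside these and the other counts of 0, limma gave 116 to 162 features at an unadjusted p under 0.05. It became 6 with values on every array and 7 (7 higher) with the culture as a random block over 29 arrays, whose consensus correlation was 0.421. The random block fit draws on the spread between arrays of a course, which are not replicates, so its p-values are less strict on the culture as the unit. It is among the alternatives counted below. Leaving out 1 array gave 0 to 19 calls, 0 to 18 higher and 0 to 1 lower, and 9 of 29 such fits called 0; features at least 2-fold above both cdc28 means then numbered 33 to 40, and those below 6 to 8. YIL082W-A passed in 26 of 44 alternatives (adjusted p from 0.000201 to 0.234), HSP42 in 5 of 44 (0.00192 to 0.372), HSP82 in 6 of 44 (0.00304 to 0.372), ACO1 in 4 of 44 (0.00383 to 1) and PRM7 in 3 of 43 (0.00433 to 0.74). Features at least 2-fold above both cdc28 means numbered 69 against B alone and 78 against E alone, and those below 16 and 62; 3 lay below with values on every array. The chaperone list had a median difference of 0.95 to 1.37 over 44 alternatives, and ribosome biogenesis -0.49 to -0.26. The G2/M median moved from -0.0182 to -0.0592 with quantile normalization, -0.144 with the median, -0.0515 with a cosine fit, 0.0511 with alpha factor at 50 to 100 min, 0.0133 with values on every array, -0.0833 without E and 0.0623 without B. No paired analysis was possible because the 3 cultures share no replicate number. With 1 alpha-factor culture, variation between such cultures was not measured.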

Other observations

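A group of Ty1-type retrotransposon genes, picked after their values were seen, stood above their mid-log level in all 3 cultures and highest after alpha factor. YMR051C had window means of 2.24 after alpha factor, 1.19 in culture B and 1.14 in culture E, a difference of 1.07 ± 0.30 (SE; limma p = 0.00678, adjusted p = 0.795). YML045W, YML040W and YML039W differed by 0.86, 0.96 and 1.01. For these 4 genes every alpha-factor window array lay above every cdc28 window array, and for YMR046C, with a difference of 0.88, the arrests overlapped. The copies of Ty1 are near-identical, so these are not independent genes.

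CUR1, which acts with BTN2 in the sorting of misfolded proteins and was in no list, had means of 0.91, -0.41 and -1.19 and no overlap between the arrests. Its difference was 1.71 ± 0.38 (limma adjusted p = 0.469). SCS7, for a sphingolipid hydroxylase, had means of 0.03, -1.45 and -1.01 and overlapped. Of the 36 features at least 2-fold above both cdc28 means 31 have a symbol, 10 are in the chaperone list, 5 in the TCA list, and 9 of the 31 are in no list, as are the 5 without a symbol. The 6 below both are in no list.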
